A study of Arabidopsis thaliana with 20 samples.

Results

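Inflorescences of Arabidopsis thaliana plants that carry DVL8 under the 35S promoter (35S:DVL8) were compared with those of wild type plants of the Columbia accession (Col-0). Of the 15 libraries with values in the series, 6 entered the comparison, 3 of 35S:DVL8 and 3 of wild type. Genes with a value of at least 1 in at least 3 of these 6 libraries were tested, which left 19544 of the 37336 genes in the table. The values are RPKM, reads scaled by the authors to the length of the gene and to the reads of the library.

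The DVL/RTFL genes (DEVIL/ROTUNDIFOLIA-LIKE) encode a plant family of very small peptides that share a short conserved stretch at their C terminus. They are known from overexpression lines, in which leaves, stems, siliques and other organs change in shape, and single mutants have mostly shown little. How the peptides act inside the cell is poorly known, and DVL8 is among the less studied members.

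The series also holds a dominant DVL1 overexpression line, dvl1-1D, and a pair of quintuple mutants. The dvl1 quintuple is mutant at dvl1, dvl8, dvl11 and dvl19 and at rtfl11, and the rtfl9 quintuple carries rtfl9 in place of dvl1. The labels list 20 samples, 4 per group, of which the authors left out 1 per group as outliers by a criterion not given in the sources used here. Replicate 4 was the one left out in both 35S:DVL8 and wild type, so their replicates 1 to 3 are analysed.

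The 35S promoter of cauliflower mosaic virus is active in most plant tissues, so DVL8 was probably expressed outside its own domain, which was not measured here. The labels name a single 35S:DVL8 line. The labels give the tissue as whole inflorescences with the oldest flower open, as flowers past anthesis and as inflorescence apices, and they record no plant age. Markers of flower parts were present: 20 of 23 genes of a mature pollen list, 15 of 17 of a tapetum list, 14 of 17 of an ovule list and all 7 of a nectary list passed the filter. In such bulk tissue, fewer cells of a type and less RNA per cell cannot be told apart.

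Reads assigned to genes, recovered from the RPKM steps, numbered 27869636, 27650371 and 33631436 in the 35S:DVL8 libraries and 22752367, 28510627 and 33367920 in the wild type libraries. Organelle genes took between 0.0246% and 0.0344% of the reads in each. A library was taken to stand apart at a gene where its RPKM + 1 was more than 2-fold from both other libraries of its group. By that measure 35S:DVL8 replicate 2 stood apart at 77 genes, 35S:DVL8 replicates 1 and 3 at 7 and 23, and wild type replicates 1, 2 and 3 at 9, 4 and 5. Results that rest on 35S:DVL8 replicate 2 are therefore given with and without it.

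DVL8 itself was nearly silent in wild type and high in every 35S:DVL8 library. DVL8 (AT3G55515, chr3:20590263-20591401 on the plus strand of TAIR10.1) had 173, 160 and 152 RPKM in 35S:DVL8, against 0.0386, 0.0616 and 0.0526 RPKM in wild type. These wild type values are 1, 2 and 2 reads, and the 35S:DVL8 values are 5503, 5044 and 5810 reads. Every 35S:DVL8 library was far above every wild type library. Scaled to library size, reads were 3106 times as many in 35S:DVL8 (95% interval 1330 to 9566, for counting error alone), and the log2 fold change was 7.27 ± 0.06 (SE; limma, adjusted p = 4.52e-10). All fold changes are on the log2(RPKM + 1) scale, which understates changes of low genes. The 6 tested genes nearest to DVL8 had log2 fold changes between -0.25 and 0.10, and none passed the test.

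No other DVL/RTFL gene passed the test. Of 24 family loci, 11 were tested, and DVL8 was the 1 that rose; 13 lay under the filter. The other 10 tested members had log2 fold changes between -0.39 and 0.31. DVL3, at the low end, had 9.12, 8.97 and 7.82 RPKM in 35S:DVL8 and 12.4, 9.90 and 12.6 RPKM in wild type (limma, adjusted p = 0.185). DVL20, at the high end, had 4.67, 4.80 and 5.42 RPKM in 35S:DVL8 and 3.77, 3.76 and 3.86 RPKM in wild type (limma, adjusted p = 0.177). The libraries of both genes did not overlap between the groups, but neither difference passed after adjustment.

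Few genes separated 35S:DVL8 from wild type. At an adjusted p under 0.05, 28 of the 19544 tested genes passed (0.143% of those tested), 14 higher (0.0716%) and 14 lower (0.0716%) in 35S:DVL8. Without adjustment 2154 genes passed (11.0%). The changes were mostly small: the median absolute log2 fold change of the 28 was 0.60, against 0.06 over all tested genes, whose median signed change was -0.0039. A log2 fold change of at least 1 in size was measured in 18 genes, of which 7 were among the 28.

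All 28 had libraries that did not overlap between the groups, as did 16.4% of all tested genes (7.06% higher and 9.33% lower in 35S:DVL8). The plot of single libraries shows the other 27 genes beside each other. The count of calls depended on each library. It was 28 without 35S:DVL8 replicate 1, 204 without replicate 2 and 6 without replicate 3, and it was 2, 2 and 3 without wild type replicates 1, 2 and 3. DVL8 and AT5G45280 passed in all 6 of these fits and the cupin gene AT1G74820 in 4. Each of the other 25 genes passed without 35S:DVL8 replicate 2 and in at most 1 other of the 6 fits, with no change of sign. These 25 calls all ended when any 1 of the wild type libraries was left out, so they are close to the threshold.

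**Figure D1:**
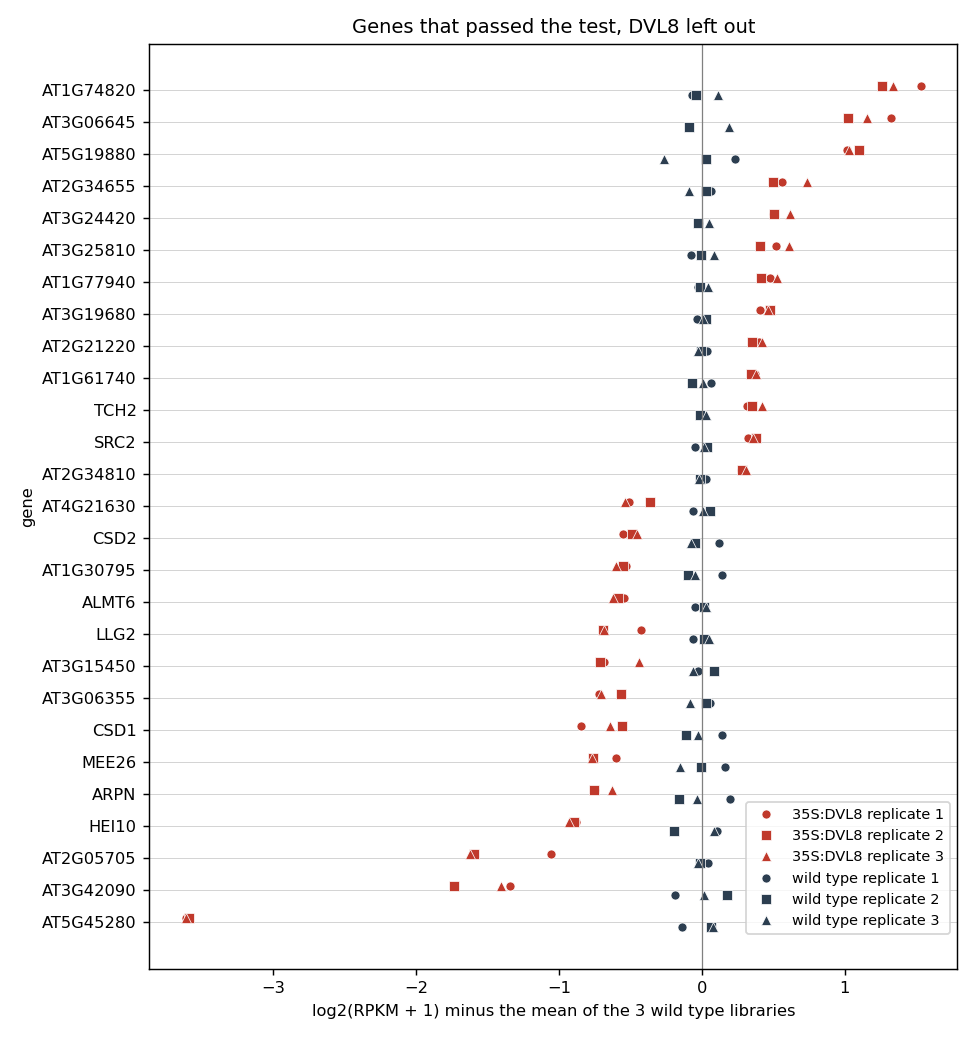
Each point is 1 library (x axis: log2(RPKM + 1) minus the wild type mean) at each of the 27 genes other than DVL8 that passed the test, with 35S:DVL8 and wild type in different colours. At every gene all 3 35S:DVL8 points lie on the same side of all 3 wild type points, and AT5G45280 lies farthest out.

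The gene with the largest fall encodes a pectin acetylesterase, a member of an enzyme family that removes acetyl groups from the pectin of the cell wall. AT5G45280 (chr5:18345534-18349695, plus strand) had 0.784, 0.813 and 0.783 RPKM in 35S:DVL8, against 18.8, 21.8 and 22.0 RPKM in wild type. The 3 35S:DVL8 libraries were almost equal and far below wild type. It fell by 3.60 ± 0.08 on the log2 scale (SE; limma, adjusted p = 4.95e-07). By reads scaled to library size, 35S:DVL8 had 0.0376 of the wild type level (95% interval 0.0308 to 0.0456, counting error), from 110 reads against 2774.

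The low level was found in 35S:DVL8 and in no other group. AT5G45280 averaged 0.793 ± 0.0172 RPKM in 35S:DVL8, 23.5 ± 1.94 RPKM in dvl1-1D, 21.5 ± 2.20 RPKM in the dvl1 quintuple, 21.5 ± 0.892 RPKM in the rtfl9 quintuple and 20.8 ± 1.78 RPKM in wild type (SD, n = 3 each). Set directly against dvl1-1D, 35S:DVL8 was lower by a log2 difference of -3.77 (limma, adjusted p = 6.99e-07). The 6 nearest tested genes had log2 fold changes between -0.04 and 0.30 against wild type and none passed. The RING-type gene AT5G45290, which lies 2 bases past its end, had 13.1, 12.1 and 12.7 RPKM in 35S:DVL8 and 12.9, 13.3 and 12.8 RPKM in wild type. Whether the fall at this locus belongs to the high DVL8 or to the single line named in the labels cannot be told apart.

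Among the 13 genes besides DVL8 that rose, the cupin-fold protein gene AT1G74820 and a peroxidase gene had the largest log2 fold changes of the protein-coding ones. AT1G74820 (chr1:28111808-28112579, minus strand) had 4.28, 3.37 and 3.62 RPKM in 35S:DVL8, against 0.740, 0.772 and 0.970 RPKM in wild type. Its log2 fold change was 1.38 ± 0.11 (SE; limma, adjusted p = 0.00813). The lowest 35S:DVL8 library was over 3 times the highest wild type library. Without wild type replicate 1 or 2 its adjusted p was 0.0636 or 0.0944. It averaged 5.27 ± 1.67 RPKM in dvl1-1D, 0.538 ± 0.156 RPKM in the dvl1 quintuple and 0.462 ± 0.274 RPKM in the rtfl9 quintuple (SD, n = 3 each). The boron transporter gene BOR5, which overlaps it on the other strand, stayed at or under 0.210 RPKM in all 6 libraries.

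AT5G19880, of the class III peroxidases that act in the cell wall, had 12.3, 13.2 and 12.5 RPKM in 35S:DVL8, against 6.75, 5.75 and 4.51 RPKM in wild type. The groups were well apart, with more spread in wild type. Its log2 fold change was 1.05 ± 0.12 (SE; limma, adjusted p = 0.0326), and it averaged 11.5 ± 2.06 RPKM in dvl1-1D (SD, n = 3). AT3G06645, a long noncoding RNA (chr3:15570847-15571126, minus strand), had 1.67, 1.16 and 1.38 RPKM in 35S:DVL8, against 0, 0 and 0.214 RPKM in wild type. That is 35 reads against 2, a ratio of 16.6 after scaling to library size (95% interval 4.27 to 143), so its size is poorly set. The log2 fold change was 1.17 ± 0.14 (SE; limma, adjusted p = 0.0366).

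The other rises lay under a log2 fold change of 0.61. AT2G34655, an uncharacterized gene of 979 exon bases, shares a stretch of 192 bases with AT1G05817 at 96.9% identity. It had 12.7, 12.1 and 14.5 RPKM in 35S:DVL8, against 8.71, 8.46 and 7.71 RPKM in wild type (log2 fold change 0.60, with limma, adjusted p = 0.0444). AT3G24420, of the alpha/beta-hydrolase superfamily, had 24.9, 25.0 and 27.1 RPKM in 35S:DVL8, against 17.1, 17.0 and 18.0 RPKM in wild type (0.54; limma, adjusted p = 0.025). AT3G25810, of the terpenoid cyclase family, had 19.6, 18.1 and 21.0 RPKM in 35S:DVL8, against 12.7, 13.3 and 14.2 RPKM in wild type (0.51; limma, adjusted p = 0.0444). In each of the 3, both groups were tight and clearly apart.

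AT1G77940, a gene of the ribosomal L30e family, was the most abundant of the genes that rose. It had 505, 485 and 522 RPKM in 35S:DVL8, against 357, 359 and 373 RPKM in wild type (log2 fold change 0.47; limma, adjusted p = 0.0262). AT3G19680, a gene with a domain of unknown function, had 17.3, 18.2 and 18.0 RPKM in 35S:DVL8, against 12.4, 13.1 and 12.8 RPKM in wild type (0.45; limma, adjusted p = 0.0326). The auxin-linked SAUR12 gene AT2G21220 had 13.4, 12.9 and 13.6 RPKM in 35S:DVL8, against 10.2, 9.88 and 9.71 RPKM in wild type (0.39; limma, adjusted p = 0.0444). The replicates of each group differed very little at the last 3 genes.

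AT1G61740, of a sulfite exporter family, had 32.8, 32.3 and 33.0 RPKM in 35S:DVL8, against 26.3, 23.9 and 25.4 RPKM in wild type (log2 fold change 0.37; limma, adjusted p = 0.0432). TCH2, which encodes a calmodulin-like calcium sensor induced by touch, had 21.0, 21.5 and 22.6 RPKM in 35S:DVL8, against 16.5, 16.5 and 17.0 RPKM in wild type (0.36; limma, adjusted p = 0.0444). The last 2 rises, named after their values were seen, were the smallest. SRC2, a C2-domain protein gene, had 72.6, 75.6 and 74.2 RPKM in 35S:DVL8 and 56.0, 59.3 and 58.3 RPKM in wild type (0.35; limma, adjusted p = 0.0326). AT2G34810, of the berberine bridge enzyme family, had 56.7, 56.8 and 58.1 RPKM in 35S:DVL8 and 47.7, 46.2 and 46.1 RPKM in wild type (0.29; limma, adjusted p = 0.0432).

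Among the falls, HEI10 encodes a RING-domain protein that promotes crossovers in meiosis. HEI10 (AT1G53490, chr1:19963267-19966952, plus strand) had 1.16, 1.14 and 1.1 RPKM in 35S:DVL8, against 3.30, 2.49 and 3.23 RPKM in wild type. The 35S:DVL8 libraries were nearly equal, and each wild type library was more than 2 times as high. It fell by 0.90 ± 0.11 on the log2 scale (SE; limma, adjusted p = 0.0366). HEI10 was the only 1 of 9 tested genes in a list of 17 meiosis genes that passed, where 0.143% of all tested genes did. That list had a median log2 fold change of -0.09. Of the genes that overlap it, MRD1 was at 0 in 5 libraries, and MUM4 had 12, 9.39 and 10.7 RPKM in 35S:DVL8 and 11.0, 11.3 and 11.5 RPKM in wild type (limma, adjusted p = 0.83).

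For HEI10, every wild type library was above every library of the other 4 groups. Its mean was 1.13 ± 0.0342 RPKM in 35S:DVL8, 0.861 ± 0.0925 RPKM in dvl1-1D, 1.19 ± 0.0138 RPKM in the dvl1 quintuple, 1.4 ± 0.196 RPKM in the rtfl9 quintuple and 3.01 ± 0.448 RPKM in wild type (SD, n = 3 each). The long noncoding RNA AT2G05705 (chr2:5021920-5022199, minus strand) had the same layout. It had 0.641, 0.129 and 0.106 RPKM in 35S:DVL8, against 2.51, 2.38 and 2.35 RPKM in wild type, and means of 0 RPKM in dvl1-1D, 0.347 RPKM in the dvl1 quintuple and 0.0808 RPKM in the rtfl9 quintuple. It fell by 1.43 ± 0.16 on the log2 scale (SE; limma, adjusted p = 0.0333), on 7 reads against 57. The direct differences between 35S:DVL8 and dvl1-1D did not pass for HEI10 (log2 difference 0.20; limma, adjusted p = 0.211) or for AT2G05705 (0.35; adjusted p = 0.212). All 4 other groups are set against the same 3 wild type libraries, so a feature of these wild type plants and an effect of the transgene cannot be told apart for these genes.

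Another low gene, the pseudogene AT3G42090 (chr3:14274222-14274699, plus strand), had 0.315, 0 and 0.261 RPKM in 35S:DVL8, against 1.93, 2.77 and 2.37 RPKM in wild type. With 2 reads against 23, the ratio scaled to library size was 0.0825 (95% interval 0.00943 to 0.334; log2 fold change -1.50 ± 0.15, SE; limma, adjusted p = 0.0262). It averaged 3.97 ± 1.61 RPKM in dvl1-1D and 1.08 ± 0.765 RPKM in the dvl1 quintuple (SD, n = 3 each), and had no read in the rtfl9 quintuple.

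The remaining falls were of moderate size. MEE26, known from a maternal effect embryo arrest mutant, had 59.3, 52.9 and 52.6 RPKM in 35S:DVL8, against 101, 89.8 and 81.3 RPKM in wild type (log2 fold change -0.71; limma, adjusted p = 0.0333). AT3G06355, a noncoding RNA that overlaps a ribosomal RNA repeat, had 5.22, 5.91 and 5.27 RPKM in 35S:DVL8, against 9.63, 9.43 and 8.66 RPKM in wild type (-0.66; limma, adjusted p = 0.0326). Because it shares sequence with ribosomal copies, its level is uncertain.

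AT3G15450, annotated as an aluminum-induced protein with YGL and LRDR motifs, had 61.0, 59.9 and 72.5 RPKM in 35S:DVL8, against 96.9, 105 and 94.9 RPKM in wild type (log2 fold change -0.61; limma, adjusted p = 0.0414). It lay on the other side of wild type in dvl1-1D, with a mean of 290 ± 36.7 RPKM (SD, n = 3), and the direct log2 difference of 35S:DVL8 from dvl1-1D was -2.15 (limma, adjusted p = 0.000102). ALMT6, a malate channel of the vacuole membrane, had 2.79, 2.68 and 2.59 RPKM in 35S:DVL8, against 4.35, 4.59 and 4.66 RPKM in wild type (-0.59; limma, adjusted p = 0.0432). In both genes the groups were clearly apart.

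AT1G30795, a glycine-rich protein gene, had 43.8, 43.1 and 41.7 RPKM in 35S:DVL8, against 70.3, 59.6 and 61.7 RPKM in wild type (log2 fold change -0.56; limma, adjusted p = 0.0326). AT4G21630, a subtilase gene named after its values were seen, had 17.3, 19.2 and 17.0 RPKM in 35S:DVL8 and 23.9, 26.1 and 25.2 RPKM in wild type (-0.47; limma, adjusted p = 0.0432). The last 4 falls, LLG2 and the copper protein genes ARPN, CSD1 and CSD2, are given with their groups below.

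Set directly against dvl1-1D, 35S:DVL8 differed at 5079 genes (26.0% of the 19544; limma, adjusted p under 0.05). Of the 28 genes above, 15 differed between these lines and 13 did not pass. The 28 were picked on the 35S:DVL8 libraries that this contrast uses again, so their share cannot be set against the 26.0%. Both lines are compared with the same wild type libraries. For AT3G24420 the mean was 25.7 ± 1.22 RPKM in 35S:DVL8, 39.2 ± 2.81 RPKM in dvl1-1D and 17.4 ± 0.538 RPKM in wild type (SD, n = 3 each; direct log2 difference -0.59; limma, adjusted p = 0.00123). For AT1G77940 the mean was 504 ± 18.5 RPKM in 35S:DVL8, 319 ± 3.77 RPKM in dvl1-1D and 363 ± 8.97 RPKM in wild type (SD, n = 3 each; direct log2 difference 0.66; limma, adjusted p = 0.000398). For AT2G21220 the mean was 13.3 ± 0.348 RPKM in 35S:DVL8, 6.82 ± 1.23 RPKM in dvl1-1D and 9.93 ± 0.250 RPKM in wild type (SD, n = 3 each; direct log2 difference 0.88; limma, adjusted p = 0.00201). So the overexpression lines lay on the same side of wild type for the first of these genes and on opposite sides for the others. The plot of 6 genes in the 5 groups shows the range of layouts.

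**Figure D2:**
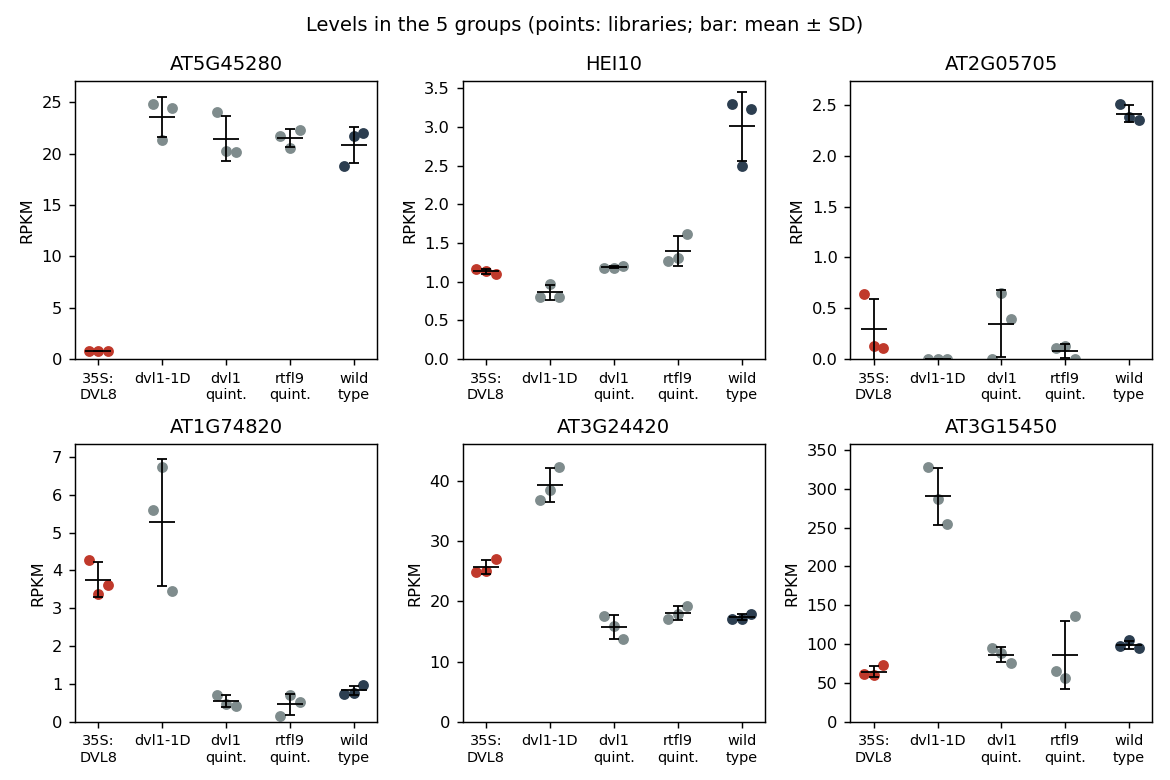
Mean RPKM with SD (bars; points are the 3 libraries) of 6 genes in 35S:DVL8, dvl1-1D, the dvl1 quintuple, the rtfl9 quintuple and wild type. AT5G45280 is low in 35S:DVL8 alone, HEI10 and AT2G05705 are high in wild type alone, AT1G74820 and AT3G24420 have higher means in both overexpression lines than in wild type, and AT3G15450 lies on opposite sides of wild type in them.

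The genes of 3 copper proteins, CSD1, CSD2 and ARPN, fell in 35S:DVL8. CSD1 and CSD2 encode the copper/zinc superoxide dismutases of the cytosol and the chloroplast, CCS the chaperone that loads them with copper, and ARPN plantacyanin, a small blue copper protein. In Arabidopsis the microRNA miR398 is known to direct cleavage of CSD1, CSD2 and CCS transcripts, and miR408 that of plantacyanin transcripts; both microRNAs are made when copper is short. FSD1, the iron superoxide dismutase of the chloroplast, is known to be made when copper is short. Neither microRNA was measured here. Their mature sequences in RefSeq (TAIR10.1; T stands for U) are shown with bases 2 to 8, the seed, in capitals, followed by the best ungapped match in each transcript with the pairing bases in capitals, all 5′ to 3′.
miR398b-3p: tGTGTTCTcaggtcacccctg
miR408-3p: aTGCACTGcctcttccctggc
CSD1: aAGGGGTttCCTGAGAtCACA
CSD2: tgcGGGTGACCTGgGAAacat
CCS: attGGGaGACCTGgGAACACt
ARPN: cCaAGGGAAGAGGCAGTGCAT

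The miR398b-3p sequence is at chr5:4691107-4691127 and that of miR408-3p at chr2:19319933-19319953, both on the plus strand. The CSD1 match lies outside the coding sequence and spans a splice junction within chr1:2827177-2827685 (plus strand), and 17 of its 21 bases pair; 6 genes of 37899 had a match with as many. The ARPN match is in the coding sequence at chr2:827696-827716 (minus strand), with 19 bases paired, which 2 genes reached. The CCS match, in the coding sequence at chr1:4267521-4267541 (minus strand), pairs at 15 bases, as did 344 genes. The CSD2 match, in the coding sequence at chr2:12015572-12015592 (plus strand), pairs at 13 bases, a number that 11668 genes reached, so by this ungapped count it is not unusual. Pairs of G with U were left out of these counts and are in small letters above. A match of letters describes the transcript and does not show that it was cleaved in these samples.

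CSD1 (AT1G08830, chr1:2827060-2829315, plus strand) had 92.9, 113 and 107 RPKM in 35S:DVL8, against 185, 155 and 164 RPKM in wild type. It fell by 0.68 ± 0.09 on the log2 scale (SE; limma, adjusted p = 0.0432). CSD2 (AT2G28190, chr2:12014412-12016569, plus strand) had 129, 135 and 139 RPKM in 35S:DVL8, against 207, 184 and 180 RPKM in wild type, a log2 fold change of -0.50 ± 0.06 (SE; limma, adjusted p = 0.0366). In both genes the highest 35S:DVL8 library was well under the lowest wild type library. The helicase gene that overlaps CSD1 at its 3′ end did not pass (limma, adjusted p = 0.892).

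ARPN (AT2G02850, chr2:826299-827994, minus strand) had 27.8, 27.8 and 30.4 RPKM in 35S:DVL8, against 54.6, 42.4 and 46.4 RPKM in wild type, a log2 fold change of -0.71 ± 0.09 (SE; limma, adjusted p = 0.0411). CCS had 25.9, 26.8 and 29.5 RPKM in 35S:DVL8 and 39.5, 36.4 and 35.3 RPKM in wild type (log2 fold change -0.42; limma, adjusted p = 0.0632, and 0.0344 without 35S:DVL8 replicate 2). FSD1 lay the other way, with 523, 460 and 462 RPKM in 35S:DVL8 and 267, 348 and 319 RPKM in wild type (0.63; limma, adjusted p = 0.0757, and 0.0279 without replicate 2). The groups did not overlap for any of the 5 genes, as was the case at 16.4% of all tested genes. CCS and FSD1 did not pass with all 6 libraries.

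In dvl1-1D, CSD1, CSD2 and FSD1 did not share these levels. The mean of CSD1 was 104 ± 10.5 RPKM in 35S:DVL8, 196 ± 23.6 RPKM in dvl1-1D and 168 ± 15.3 RPKM in wild type (SD, n = 3 each), and the direct log2 difference of 35S:DVL8 from dvl1-1D was -0.90 (limma, adjusted p = 0.00158). For CSD2 it was 134 ± 4.84 RPKM in 35S:DVL8, 191 ± 16.7 RPKM in dvl1-1D and 191 ± 14.6 RPKM in wild type (SD, n = 3 each; direct log2 difference -0.50; limma, adjusted p = 0.0026). For FSD1 it was 482 ± 35.5 RPKM in 35S:DVL8, 255 ± 22.0 RPKM in dvl1-1D and 311 ± 41.0 RPKM in wild type (SD, n = 3 each; direct log2 difference 0.91; limma, adjusted p = 0.000619). ARPN had a lower mean in both overexpression lines than in wild type: 28.7 ± 1.49 RPKM in 35S:DVL8, 34.6 ± 4.37 RPKM in dvl1-1D and 47.8 ± 6.24 RPKM in wild type (SD, n = 3 each). Its direct difference did not pass (-0.26; limma, adjusted p = 0.068).

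The wider list of copper and iron response genes had 26 members. Of these 20 were tested, 0 were higher and 2 lower (CSD1 and CSD2), where 0.143% of all tested genes passed, and the median log2 fold change was -0.06, against -0.0039 over all tested genes. At an unadjusted p under 0.05, 3 members were higher and 4 lower, where 11.0% of all tested genes passed, and voom on the recovered reads called 5. Groups did not overlap at 3 members that were higher and 5 that were lower, where these shares over all tested genes were 7.06% and 9.33%. Without 35S:DVL8 replicate 2, 3 members were higher and 4 lower, where 1.04% of all tested genes passed. The other members that passed then were the iron-related genes NAS1 (nicotianamine synthase), OPT3 (a metal and glutathione transporter) and FER1 (ferritin), beside CCS and FSD1. With all libraries their log2 fold changes were 0.64 for NAS1, 0.31 for OPT3 and -0.30 for FER1, with adjusted p of 0.176, 0.0889 and 0.142 (limma).

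**Figure D3:**
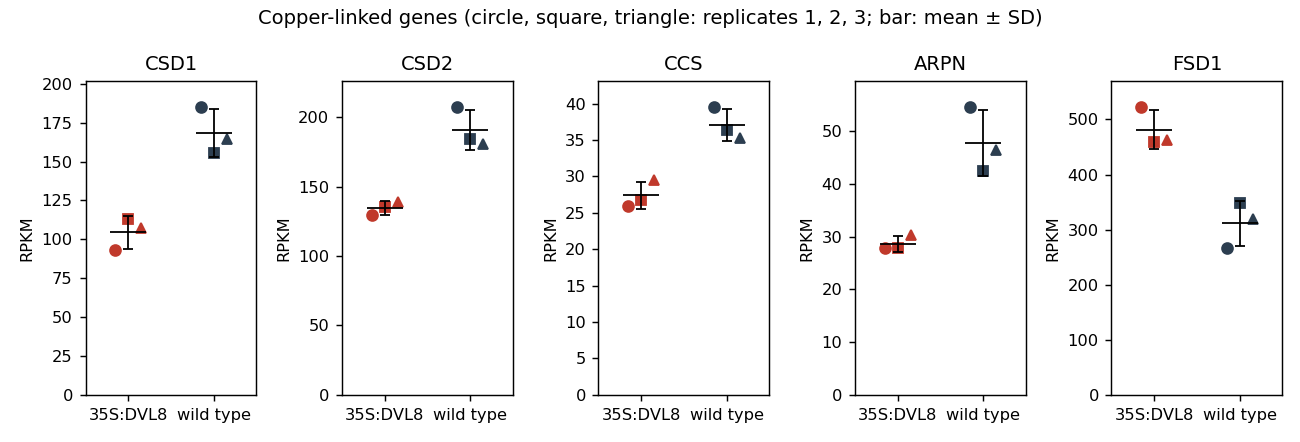
RPKM of CSD1, CSD2, CCS, ARPN and FSD1 in each library (points) of 35S:DVL8 and wild type, with the group mean and SD as bars. The 35S:DVL8 points of the first 4 genes lie under all wild type points and those of FSD1 above them; CCS and FSD1 did not pass the test.

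Most genes of a mature pollen list had lower values in 35S:DVL8, lowest in replicate 2, and 1 of them passed the test. Of 23 list members 20 were tested, 0 were higher and 1 lower, where 0.143% of all tested genes passed. Of the members, 13 had every 35S:DVL8 library under every wild type library, as did 9.33% of all tested genes. The median log2 fold change was -0.36, against -0.0039 over all tested genes, and -0.23 without 35S:DVL8 replicate 2. The median deviation of the list from the wild type mean was -0.27, -0.61 and -0.24 in 35S:DVL8 replicates 1, 2 and 3, against -0.07, 0.04 and 0.03 in those of wild type. Replicate 2 was thus the lowest, and replicates 1 and 3 lay between it and wild type. The members' summed level was 894, 685 and 914 RPKM in 35S:DVL8 and 983, 1080 and 1040 RPKM in wild type, and the part of pollen amount in the other results was not tested.

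LLG2, which encodes a membrane-anchored partner of the receptor kinases that keep pollen tubes intact, was the member that fell. It had 11.4, 9.37 and 9.42 RPKM in 35S:DVL8, against 15.0, 15.9 and 16.3 RPKM in wild type (log2 fold change -0.60 ± 0.08, SE; limma, adjusted p = 0.0444). A gene that overlaps its 3′ end, AT2G20690, had a log2 fold change of 0.0041. Without 35S:DVL8 replicate 2, where 1.04% of all tested genes passed, 4 more members passed: TIP5;1, AGP11, ANX2 and STP11.

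TIP5;1, an aquaporin-type channel of pollen, had 4.77, 3.91 and 4.13 RPKM in 35S:DVL8 and 7.16, 6.77 and 6.62 RPKM in wild type (limma, adjusted p = 0.0562, and 0.0331 without replicate 2). AGP11, a pollen arabinogalactan protein, had 107, 67.5 and 98.3 RPKM in 35S:DVL8 and 130, 148 and 135 RPKM in wild type (limma, adjusted p = 0.177, and 0.0279 without replicate 2). ANX2, a receptor kinase of the pollen tube, had 7.28, 3.66 and 6.34 RPKM in 35S:DVL8 and 9.47, 11.1 and 9.85 RPKM in wild type (limma, adjusted p = 0.183, and 0.0379 without replicate 2). In the last 2 genes replicate 2 was far under the other 35S:DVL8 libraries, which widened the spread. Of tapetum genes, which mark earlier anthers, 0 of 15 tested passed and their median log2 fold change was 0.06. At an unadjusted p under 0.05, 3 of the 15 passed, where 11.0% of all tested genes did.

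In 35S:DVL8 replicate 2, several genes of salicylate signalling and defence were higher than in each of the other 5 libraries. PR2, a beta-1,3-glucanase and a standard marker of the salicylate response, had 13.6, 98.7 and 22.5 RPKM in 35S:DVL8 and 13.5, 8.57 and 8.2 RPKM in wild type (log2 fold change 1.58 ± 0.61, SE; limma, adjusted p = 0.388). PR5, a thaumatin-like defence protein, had 34.9, 144 and 41.6 RPKM in 35S:DVL8 and 35.2, 34.3 and 31.6 RPKM in wild type. PCR1, a cysteine-rich membrane protein linked to cadmium tolerance, had 3.21, 49.0 and 3.07 RPKM in 35S:DVL8 and 3.84, 5.50 and 3.96 RPKM in wild type. Replicate 2 was the highest of the 6 libraries at each, and replicates 1 and 3 of PCR1 lay under all wild type libraries.

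ICS1, which makes the salicylate precursor isochorismate, had 6.03, 17.0 and 6.02 RPKM in 35S:DVL8 and 5.95, 5.53 and 5.67 RPKM in wild type. WRKY70, a transcription factor of salicylate signalling, had 22.7, 47.3 and 34.1 RPKM in 35S:DVL8 and 24.9, 22.1 and 27.5 RPKM in wild type. GSTF7, a glutathione transferase induced in defence, had 1.15, 11.5 and 1.99 RPKM in 35S:DVL8 and 1.88, 1.01 and 1.46 RPKM in wild type. In all 3 the high value was again that of replicate 2. The salicylate and defence list, which holds PR2, PR5, ICS1 and WRKY70, had 21 members, of which 15 were tested and 0 passed. At an unadjusted p under 0.05, 1 of the 15 passed, where 11.0% of all tested genes did. The list had a median log2 fold change of 0.24, and 0.06 without replicate 2. The summed level was 179, 464 and 224 RPKM in 35S:DVL8 and 192, 173 and 182 RPKM in wild type. The median deviation of the list from the wild type mean was -0.05, 0.59 and 0.19 in 35S:DVL8 replicates 1, 2 and 3. In those of wild type it was 0.06, -0.05 and -0.02. By both measures 35S:DVL8 replicate 3 was also above every wild type library, though less than replicate 2. What set replicate 2 apart was not tested.

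**Figure D4:**
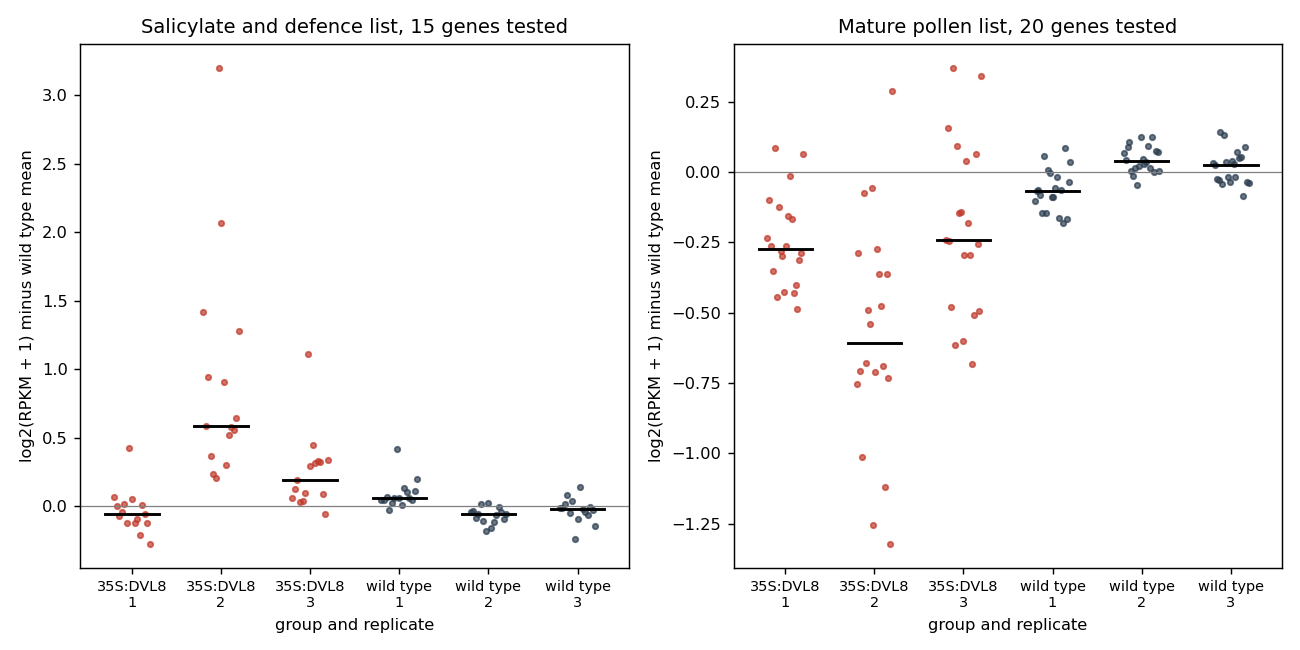
Deviation of each tested gene (points; log2(RPKM + 1) minus the wild type mean) in each of the 6 libraries, for the salicylate and defence list (15 genes) and the mature pollen list (20 genes), with the median as a black line. In 35S:DVL8 replicate 2 the medians are 0.59 and -0.61, the farthest from wild type in both lists.

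At the 77 genes where 35S:DVL8 replicate 2 stood apart, it was higher at 43 (0.220% of those tested) and lower at 34 (0.174%). Besides defence genes, LHCB1.4, an antenna protein of photosystem II named after its values were seen, was high in it, with 66.4, 181 and 60.9 RPKM in 35S:DVL8 and 53.0, 64.0 and 68.8 RPKM in wild type. Low in it was RALFL9, a pollen-expressed RALF peptide gene, with 6.77, 2.03 and 7.77 RPKM in 35S:DVL8 and 10.1, 11.5 and 11.4 RPKM in wild type. The genes lower in replicate 2 had a median exon length of 522 bases, those higher 1401.5 bases and all tested genes 1753 bases. Whether short length is particular to replicate 2 was not tested, and the other libraries had fewer such genes. The genes lower in 35S:DVL8 replicates 1 and 3 (4 and 18 genes) had medians of 77.5 and 646 bases. Those lower in wild type replicates 1, 2 and 3 (7, 3 and 1 genes) had 88, 134 and 87 bases.

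Without 35S:DVL8 replicate 2, 204 genes passed (1.04% of 19544), 62 higher (0.317%) and 142 lower (0.727%). These held all 28 genes above and 176 others. Replicate 2 did not lie with wild type at most of them: at all 142 lower genes it was also under every wild type library, and at 120 it was the lowest of the 6 libraries. Of the 62 higher genes it was above every wild type library at 51, and it was the lowest of the 3 35S:DVL8 libraries at 44. So at these lower genes it was mostly more extreme than the other 35S:DVL8 libraries, and at these higher genes mostly less. The genes were picked by a fit that used the same wild type libraries. Matching shares over all tested genes were not counted, so these counts describe the picked genes only.

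Among the genes that passed in limma without replicate 2, but not with all 6 libraries, were 2 TCP transcription factor genes and 2 nectary genes. With replicate 2 kept, 1 class II TCP gene passed with array weights and by voom, and 1 nectary gene with array weights and in the fit of all 15 libraries. TCP4, which limits the growth of leaves and petals, had 10.3, 13.3 and 10.5 RPKM in 35S:DVL8 and 16.6, 17.0 and 15.2 RPKM in wild type (log2 fold change -0.49; limma, adjusted p = 0.134, and 0.00978 without replicate 2). TCP1, a relative of the snapdragon gene CYCLOIDEA that shapes flower symmetry there, had 2.42, 1.88 and 1.83 RPKM in 35S:DVL8 and 3.64, 3.61 and 4.02 RPKM in wild type (-0.65; limma, adjusted p = 0.0766, and 0.0491 without replicate 2). They were 2 of 7 tested class II TCP genes, where 1.04% of all tested genes passed without replicate 2. The median log2 fold change of the 7 was -0.14 with all libraries. The mean of TCP4 was 9.50 ± 0.930 RPKM and that of TCP1 1.91 ± 0.0781 RPKM in dvl1-1D (SD, n = 3), and the direct differences did not pass (limma, adjusted p = 0.155 for TCP4 and 0.722 for TCP1).

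SWEET9, the sucrose transporter needed to secrete nectar, had 69.7, 49.4 and 67.2 RPKM in 35S:DVL8 and 39.1, 38.5 and 40.1 RPKM in wild type (log2 fold change 0.63; limma, adjusted p = 0.12, and 0.000234 without replicate 2). CWINV4, the cell wall invertase that acts with it in nectaries, had 26.7, 23.7 and 26.9 RPKM in 35S:DVL8 and 19.4, 21.7 and 20.8 RPKM in wild type (0.31; limma, adjusted p = 0.157, and 0.0316 without replicate 2). All 35S:DVL8 libraries were above all wild type libraries at both genes, with replicate 2 the lowest of its group. The nectary list of 7 tested genes had a median log2 fold change of 0.17, with a range from -0.43 to 0.63. Groups did not overlap at 3 members that were higher and 1 that was lower. Over all tested genes these shares were 7.06% and 9.33%. SWEET9 and CWINV4 were the 2 members that passed without replicate 2, where 1.04% of all tested genes did. In dvl1-1D the mean was 78.0 ± 3.26 RPKM for SWEET9 and 36.7 ± 1.93 RPKM for CWINV4 (SD, n = 3), and 35S:DVL8 was lower than dvl1-1D at CWINV4 (direct log2 difference -0.50; limma, adjusted p = 0.00248) while SWEET9 did not pass (-0.34; limma, adjusted p = 0.0727).

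In all, 36 lists of pathway and cell type genes held 715 loci, of which 596 were tested and 6 passed (1.01%, against 0.143% of all genes), 2 higher and 4 lower. The 6 were DVL8, TCH2, CSD1, CSD2, LLG2 and HEI10, and 31 lists held no gene that passed in limma. The lists were chosen with earlier results of these data known, and DVL8 is the gene put under the 35S promoter. The larger share in the lists therefore cannot be read as an enrichment. TCH2 was 1 of 15 tested genes in the list of rapid touch and wound genes, whose median log2 fold change was 0.31, and 0.11 without 35S:DVL8 replicate 2. The median deviation of that list from the wild type mean was -0.01, 0.52 and 0.42 in 35S:DVL8 replicates 1, 2 and 3. Replicate 3 was thus nearly as high as replicate 2, and replicate 1 lay at the wild type level. At an unadjusted p under 0.05, 6 of the 15 passed, all higher, where 11.0% of all tested genes did. In that list TCH4, a wall-modifying xyloglucan enzyme, had 4.87, 9.76 and 6.83 RPKM in 35S:DVL8 and 3.95, 3.09 and 3.56 RPKM in wild type (limma, adjusted p = 0.177).

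Lists of genes that act in organ shape and growth held no gene that passed. The tested members were 17 brassinosteroid, 24 auxin early response, 19 gibberellin, 11 cytokinin response regulator, 12 growth-regulating factor, 16 floral organ identity, 20 carpel and fruit patterning, 17 organ polarity, 22 mitosis and 27 expansin and wall loosening genes. At an unadjusted p under 0.05, 11.0% of all tested genes passed. Above that share were auxin early response (8 of 24), expansins (7 of 27) and floral organ identity (4 of 16). So were organ polarity (4 of 17), gibberellin (4 of 19) and carpel and fruit patterning (4 of 20). Below it were cytokinin response regulators (1 of 11), growth-regulating factors (1 of 12), brassinosteroid (1 of 17) and mitosis (0 of 22). Voom on the recovered reads called 0 in these lists and in the salicylate and tapetum lists. The median log2 fold changes of these lists lay between -0.10 (expansins) and 0.03 (organ polarity). With 3 libraries a group, changes of the size of the smaller rises above were detected only where replicates differed little, so changes of that size in other genes may have been missed.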

How the data were processed

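RNA of whole inflorescences was sequenced as paired reads on an Illumina NovaSeq, per the labels' protocols. The submitters' processing notes list HTSeq, HISAT2 and cutadapt and give no versions. The deposited values are RPKM per gene, computed by the authors from counts made without regard to strand, per the table's name, so reads of overlapping or antisense genes cannot be told apart. Which build was used is not given in the sources; of 37336 identifiers, 37051 were matched to TAIR10.1, which gave names, coordinates and sequences. Whole reads were recovered from the RPKM steps, within 0.005 of a read, for 29911 of 29911 genes above 0 (100%). Libraries of a group differed by more than sampling noise. The mean chi-square per gene was at least 2.41 over genes with at least 20 reads. Such a spread cannot show that the libraries are biological replicates, and each was counted as a replicate on the word of the series text.

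The test was limma 3.58.1 (R 4.3.3) on log2(RPKM + 1), a pseudocount of 1 RPKM, with the variance trended on the mean, fitted to the 6 libraries of 35S:DVL8 and wild type, and likewise to those of 35S:DVL8 and dvl1-1D over the same 19544 genes. P-values are two-sided and adjusted by Benjamini-Hochberg over all tested genes, with a threshold of 0.05. With 3 libraries a group, no permutation test of 1 gene can give a p under 0.1. The series text calls the replicates independent biological ones. Leaving out outliers may have narrowed the spread within groups, which was not tested. Intervals of read ratios are exact 95% intervals (scipy 1.17.1, Python 3.11.15).

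Named genes were DVL8 and its family, the 12 largest rises and falls that passed with groups that do not overlap, up to 4 members per list, and up to 8 genes in each direction that set a library apart. PR5, ICS1, WRKY70, TCP4 and members that passed without 35S:DVL8 replicate 2 were named after their values were seen. The members and lists were chosen with earlier results of these data known. Alternatives were other scalings, filters, pseudocounts, array weights, a replicate block and each library left out, with voom on the recovered reads added after seeing the data.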

Additional observations from a re-analysis of the deposited data

How the results depend on the processing

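The DVL8 rise kept its direction and passed the test in all alternatives, with log2 fold changes between 7.21 and 11.24, the highest by voom on recovered reads. The 28 genes that differed between 35S:DVL8 and wild type became 47 with array weights and 52 by voom, and they became 13 with a pseudocount of 0.1 RPKM and 5 with no filter on low values. Leaving out each library in turn gave between 2 and 204 genes. Genes of the lists that passed, 6 in all, became 10 with array weights, 12 by voom, 3 with a pseudocount of 0.1 RPKM, 3 with quantile normalization and 1 with no filter, and between 1 and 23 with each library left out. Of the 28 genes, 25 also passed by voom, 26 with median-of-ratios scaling and 13 with all 15 libraries in a single fit. No result changed sign. Between 35S:DVL8 and dvl1-1D the 5079 genes became between 2920 and 4269 with a library left out. The causes of these differences were not tested.

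Libraries with the same replicate number had correlations of their deviations of -0.27, -0.07 and 0.03. Those with different numbers had correlations between -0.14 and 0.18. Deviations from means of 3 libraries depend on each other, so these values cannot settle whether the numbers pair the samples. With the replicate number as a block, 3 genes differed between 35S:DVL8 and wild type, 1 of them in a list, and 3064 differed between 35S:DVL8 and dvl1-1D. The planned tests on raw counts were not run because the deposited unit is RPKM. Levels of a few reads, as in AT3G42090, AT2G05705 and AT3G06645, limit the precision of their folds. 35S:DVL8 replicate 2 had the lowest array weight, 0.606, against 1.83 for wild type replicate 2, the highest.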

Other observations

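NIP5;1, a boric acid channel, was named after its values were seen. It had 49.2, 34.5 and 39.8 RPKM in 35S:DVL8 and 23.7, 22.9 and 18.2 RPKM in wild type, with no overlap of the groups. Its log2 fold change was 0.89 ± 0.13 (SE; limma, adjusted p = 0.0703), and without 35S:DVL8 replicate 2 it was 1.01 (limma, adjusted p = 0.0123). DIN6, an asparagine synthetase gene switched on by darkness and low sugar, had 32.8, 30.9 and 38.6 RPKM in 35S:DVL8 and 47.7, 51.8 and 50.8 RPKM in wild type (log2 fold change -0.55; limma, adjusted p = 0.0595, and 0.0245 without replicate 2). It had the smallest adjusted p of the 18 tested genes of the sugar starvation and darkness list, none of which passed in limma with all 6 libraries. With array weights 1 member was lower, and by voom on the recovered reads 1 was higher and 1 lower.

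Beside the salicylate and defence list, a list of 18 genes linked to pathogens and salicylate, chosen on earlier results of these data, had 13 tested members and 0 that passed. Its median log2 fold change was 0.17, and 0.03 without 35S:DVL8 replicate 2. Its summed level was 175, 310 and 212 RPKM in 35S:DVL8 and 207, 195 and 197 RPKM in wild type, so replicate 2 was again the highest library.

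35S:DVL8 replicate 3 stood apart mostly at other genes. LpxC1, an enzyme gene of lipid A synthesis, had 0.184, 0.212 and 10.7 RPKM in 35S:DVL8 and 12.5, 6.58 and 3.95 RPKM in wild type. It has copies of 100% identity elsewhere in the genome, so its level is uncertain. AT2G30810, of the gibberellin-regulated protein family, had 13.3, 14.7 and 1.56 RPKM in 35S:DVL8 and 7.39, 13.7 and 11.6 RPKM in wild type.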
